A study of Mus musculus with 8 samples.

Results

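The genes described here are the enzymes that build triglyceride from glycerol-3-phosphate and 2 genes that supply glycerol to that route, followed in brown adipose tissue (BAT) of mice lacking adipose triglyceride lipase (ATGL) in their brown adipocytes. They were chosen by name from the pathway: the glycerol-3-phosphate acyltransferases Gpam, Gpat3 and Gpat4, the acylglycerophosphate acyltransferases Agpat2 and Agpat3, the phosphatidate phosphatase Lpin1, the diacylglycerol acyltransferases Dgat1 and Dgat2, the glycerol kinase Gk and the glycerol channel Aqp7. Earlier results of these data were known when the genes were chosen. All 10 were present among the 31053 genes of the count table and all 10 were among the 8930 genes with enough counts to test. BAT was profiled by bulk RNA-seq in 4 wild-type (WT) mice and 4 mice of the group named ATGLKO in the labels and Ucp1Δ/Δ in the study. Ucp1Δ/Δ mice carry a floxed Pnpla2, the gene for ATGL, deleted by a Cre recombinase under the Ucp1 promoter, so that deletion takes place only in cells that express UCP1, and every other cell of the tissue keeps the gene. The mice were C57BL6/J males on a normal diet, 10 weeks old per the labels, although the study's own text gives a younger age for these mice. The study's methods state a fast before tissue collection, but do so ahead of the description of the Ucp1Δ/Δ mice and do not repeat it there. Whether the WT mice carried floxed alleles or Cre was not given in the sources used here. The labels name both whole BAT and its stromal vascular fraction as the material. Adipocyte genes were abundant in all 8 libraries, with the summed counts per 1000000 (CPM, scaled between libraries by the trimmed mean of M-values) of 8 adipocyte markers at 9566 to 16700.

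A fat cell makes triglyceride by adding fatty acids to a glycerol backbone one after another. A glycerol-3-phosphate acyltransferase adds the first and an acylglycerophosphate acyltransferase the next, giving phosphatidic acid, from which a lipin removes the phosphate to leave diacylglycerol, and a diacylglycerol acyltransferase completes triglyceride by adding the last. ATGL starts the reverse route by cutting a fatty acid from stored triglyceride, and glycerol set free by lipolysis can leave through AQP7 or be phosphorylated again by glycerol kinase, which brown fat expresses more than white fat does.

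Of the 10 genes, 7 had a promoter window in the RefSeq table of build GRCm38.p6, which gives 250 bases before and 50 after a start site. Gpat4, Dgat1 and Dgat2 had none. The windows of Agpat2, Lpin1 and Aqp7 are shown because these genes differed most in how their transcripts moved between genotypes: one fell strongly, one had the smallest difference and one had the largest positive value. Each is written 5′ to 3′ on the strand of its gene, which is the minus strand in all 3 cases, at chr2:26604368-26604667 for Agpat2, chr12:16610917-16611216 for Lpin1 and chr4:41047913-41048212 for 1 of the 2 windows of Aqp7, and capitals mark matches on either strand to any of 7 searched motifs.

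Agpat2: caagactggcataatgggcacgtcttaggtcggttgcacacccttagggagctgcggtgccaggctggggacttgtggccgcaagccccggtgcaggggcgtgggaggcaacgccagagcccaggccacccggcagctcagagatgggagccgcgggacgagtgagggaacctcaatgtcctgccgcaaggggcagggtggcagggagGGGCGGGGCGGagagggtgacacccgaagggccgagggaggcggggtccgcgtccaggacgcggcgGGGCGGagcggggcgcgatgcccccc
Lpin1: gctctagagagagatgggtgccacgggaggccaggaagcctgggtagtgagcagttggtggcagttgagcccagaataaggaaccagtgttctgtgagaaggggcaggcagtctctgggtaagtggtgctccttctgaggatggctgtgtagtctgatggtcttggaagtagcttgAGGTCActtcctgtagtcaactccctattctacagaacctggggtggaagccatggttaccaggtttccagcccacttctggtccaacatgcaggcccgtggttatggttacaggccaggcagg
Aqp7: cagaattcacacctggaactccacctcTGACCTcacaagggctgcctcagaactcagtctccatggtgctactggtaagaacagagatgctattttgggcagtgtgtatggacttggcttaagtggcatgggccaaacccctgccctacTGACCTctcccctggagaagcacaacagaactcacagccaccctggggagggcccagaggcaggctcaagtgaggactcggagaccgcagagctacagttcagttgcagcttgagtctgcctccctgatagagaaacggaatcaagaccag

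The motifs searched were AGGTCA (bound by nuclear receptors, in 16.3% of the 32851 promoter windows of the table), CACGTG (E-box, 7.15%), TCACNCCAC (core of the sterol regulatory element, 1.24%), CCAAT (37.4%), GGGCGG (GC box, 35.7%), TATAAA (13.6%) and TGACGTCA (cAMP response element, 1.79%). The Agpat2 window, with a GC content of 72%, held GGGCGG 3 times, the first 2 matches sharing a base. The Lpin1 window held AGGTCA at 1 place and the Aqp7 window at 2, as its reverse complement TGACCT. Of the windows not shown, the other Aqp7 window and a Gpam window each held AGGTCA at 1 place. Those of Gpat3 and Gk, genes that did not pass the test, held GGGCGG 3 times each. These matches describe letters in a window and say nothing of binding.

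Libraries held 2017697 to 3115956 counts, and 3 counts, the limit below which a gene was taken as not detected, corresponded to 0.933 to 1.53 CPM. Pnpla2 itself was at 2701 to 3152 CPM in WT mice and 403 to 531 CPM in Ucp1Δ/Δ mice, a log2 fold change of -2.62 (SE 0.17, adjusted p = 1.97e-07 by the quasi-likelihood test of edgeR, adjusted over all genes by Benjamini-Hochberg, as for every gene below). Genotypes also differed in marker genes of other cells. The summed CPM of 8 macrophage markers was 64.8 to 95.4 in WT mice and 669 to 1088 in Ucp1Δ/Δ mice, with 7 of 7 tested markers higher, and that of 6 stromal markers 316 to 437 and 932 to 1686, with 6 of 6 higher. Of all 8930 tested genes, 13.3% were higher and 7.63% lower. Some macrophage markers had enough counts to test only through the Ucp1Δ/Δ mice, so their calls partly follow from the filter. Trem2, for example, had 0 or 1 count and Adgre1 0 to 11 counts in WT libraries. The 8 adipocyte markers summed to 14633 to 16700 CPM in WT mice and 9566 to 13373 CPM in Ucp1Δ/Δ mice, with 3 lower and 1 higher by the test. Brown adipocyte markers (8 genes) summed to 5590 to 13168 and 4446 to 7682 CPM, with 2 lower and 1 higher. Neutrophil and lymphocyte markers stayed at 7.43 CPM or less in sum, with Cd79a at 0 in every library. In whole tissue, fewer cells of a type and less RNA per cell cannot be told apart, and the part that cell composition had in the differences below was not tested. Skeletal muscle markers (8 genes) varied within both genotypes, at 17.7 to 1353 CPM in WT mice and 55.6 to 1865 CPM in Ucp1Δ/Δ mice, and 0 of the 8 passed the test by edgeR, DESeq2 or limma voom, also at an unadjusted p of 0.05. The 5 endothelial markers summed to 133 to 170 CPM in WT mice and 185 to 202 CPM in Ucp1Δ/Δ mice, with 1 higher by the test.

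Messenger RNA of 3 of the 10 genes fell in Ucp1Δ/Δ BAT: Agpat2, Dgat2 and Gpat4. Each catalyses a different acylation step of the route. No gene of the 10 was higher at an adjusted p of 0.05 in the main edgeR test or by DESeq2, although 1, Aqp7, had an unadjusted p under 0.05 by both and passed with limma voom. Aqp7 also passed by edgeR when libraries were scaled by total counts alone (adjusted p = 0.0152) or genes needed at least 10 counts in every mouse (adjusted p = 0.0343). Among all 8930 genes tested, 21.0% passed in either direction, 7.63% as lower and 13.3% as higher in Ucp1Δ/Δ mice, so that 3 of 10 lower stands beside 7.63%. Agpat2 and Dgat2 also fell by more than 1 on the log2 scale, which 2.54% of tested genes did, and none of the 10 rose by as much, which 9.56% did. All Ucp1Δ/Δ mice lay below all WT mice for the same 3 genes (9.37% of tested genes), and for none of the 10 did they all lie above (14.4%). The median log2 fold change of the 10 was -0.43, with 8 values below 0, against -0.0087 over all tested genes.

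**Figure D1:**
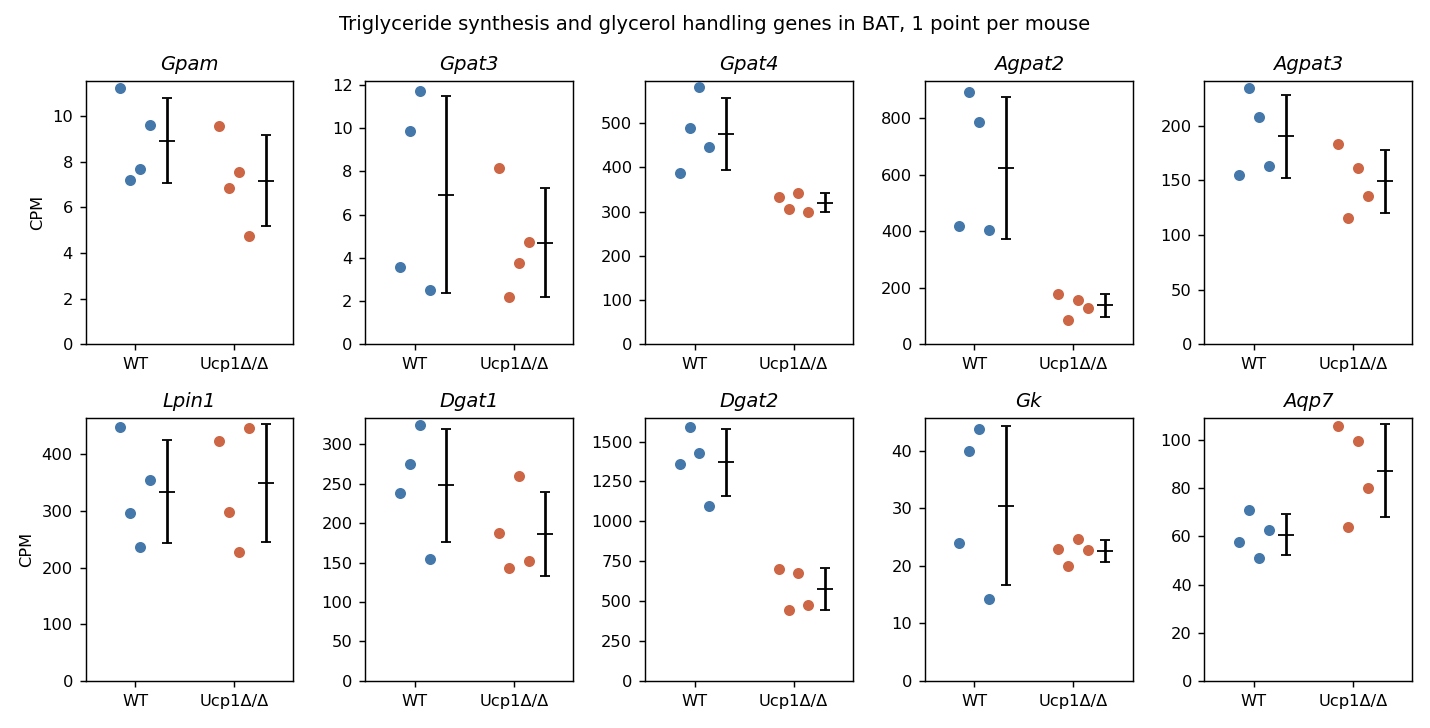
CPM of the 10 genes in each mouse, 1 panel a gene with its own axis from 0, in 4 WT mice (blue) and 4 Ucp1Δ/Δ mice (orange). The bar beside each group gives the mean and SD; the groups are apart for Gpat4, Agpat2 and Dgat2 and overlap in the other panels.

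Among the glycerol-3-phosphate acyltransferases, which start the route, Gpat4 of the endoplasmic reticulum fell. It was at 387, 489, 581 and 446 CPM in WT mice and 332, 306, 343 and 299 CPM in Ucp1Δ/Δ mice. The Ucp1Δ/Δ values lay close together and all below the WT values, but the nearest pair, 343 and 387 CPM, differed by little. The mean went from 476 ± 81.6 to 320 ± 20.9 CPM (SD, n = 4 each), with a log2 fold change of -0.57 (SE 0.17, 95% interval -0.93 to -0.22, adjusted p = 0.022). Gpat4 lies at chr8:23171265-23208346 (mm10, minus strand), Gpam at chr19:55067268-55127238 (minus strand) and Gpat3 at chr5:100845713-100899102 (plus strand). The Gpat4 call was not stable. It was lost when libraries were scaled by total counts alone (log2 fold change -0.43, adjusted p = 0.072), without WT mouse 3 (-0.47, adjusted p = 0.0922), without Ucp1Δ/Δ mouse 2 (-0.55, adjusted p = 0.0645) and without Ucp1Δ/Δ mouse 4 (-0.54, adjusted p = 0.0648).

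Gpam, the mitochondrial enzyme, and Gpat3, another enzyme of the endoplasmic reticulum, were read from few counts. Gpam had 11 to 27 counts a library, or 11.2, 7.17, 7.68 and 9.62 CPM in WT mice and 9.55, 6.85, 7.52 and 4.72 CPM in Ucp1Δ/Δ mice. Its log2 fold change was -0.29 (SE 0.29, 95% interval -0.91 to 0.32, adjusted p = 0.53). Gpat3 had 5 to 35 counts and was at 3.57, 9.86, 11.7 and 2.53 CPM in WT mice and 8.14, 2.18, 3.76 and 4.72 CPM in Ucp1Δ/Δ mice. For both genes the genotypes overlapped, and for Gpat3 the 95% interval of -1.63 to 0.39 around a log2 fold change of -0.62 (SE 0.48, adjusted p = 0.404) still holds a fall larger than that of Gpat4. Leaving out single mice moved the Gpat3 value from -1.04 (without Ucp1Δ/Δ mouse 1) to -0.22 (without WT mouse 3). Gpat3 shares 1052 exonic bases with the antisense gene 4930458D05Rik, which had 2 to 14 counts, and the sources used here do not say whether counting used strand, so reads of the pair cannot be told apart. It also shares 259 exonic bases with Gm42987 on its own strand, which counting by strand could not separate. Gm42987 was not among the genes of the count table.

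Agpat2 showed the largest change of the 10. AGPAT2 converts lysophosphatidic acid to phosphatidic acid, and its loss causes congenital generalized lipodystrophy in humans and near absence of fat in mice. Its level was 418, 892, 788 and 403 CPM in WT mice 1 to 4 and 177, 84.6, 158 and 130 CPM in Ucp1Δ/Δ mice 1 to 4. The highest Ucp1Δ/Δ mouse was thus below the lowest WT mouse, although the WT mice spread into a higher pair, mice 2 and 3, and a lower pair, mice 1 and 4. The mean fell from 625 ± 252 to 137 ± 39.9 CPM (SD, n = 4 each), a 4.56-fold lower level with a log2 fold change of -2.19 (SE 0.29, 95% interval -2.80 to -1.58, adjusted p = 5.55e-05). Only 15 of the 8930 tested genes had a lower log2 fold change. The gene lies at chr2:26593057-26604417 on the minus strand and shares 64 exonic bases with Egfl7 on the other strand. Egfl7 itself was at 63.3 to 67.8 CPM in WT mice and 52.7 to 94.4 CPM in Ucp1Δ/Δ mice, with a log2 fold change of 0.13 (adjusted p = 0.669).

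Agpat3, an enzyme of the same family that also acylates lysophospholipids, was at 155, 235, 208 and 163 CPM in WT mice and 183, 116, 161 and 136 CPM in Ucp1Δ/Δ mice. These ranges overlapped, since Ucp1Δ/Δ mouse 1 lay above WT mice 1 and 4. The log2 fold change was -0.35 (SE 0.19, 95% interval -0.76 to 0.06, adjusted p = 0.227). Agpat3 lies at chr10:78269178-78352489 on the minus strand and shares 16 exonic bases with Gm40709 on the other strand, a gene absent from the count table. Like Agpat2, it was higher in WT mice 2 and 3 than in WT mice 1 and 4.

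Lpin1, whose product removes phosphate from phosphatidic acid and also acts as a transcriptional coactivator, had the smallest difference. It was at 449, 297, 236 and 354 CPM in WT mice and 424, 298, 228 and 447 CPM in Ucp1Δ/Δ mice. Both groups covered the same range, with mice 1 and 4 high and mice 2 and 3 low in each genotype. Lpin1 lies at chr12:16535669-16610966 on the minus strand. Its log2 fold change was 0.065 (SE 0.23, 95% interval -0.43 to 0.56, adjusted p = 0.879), and its sign turned without WT mouse 3, Ucp1Δ/Δ mouse 1 or Ucp1Δ/Δ mouse 4 (-0.081 to -0.034).

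Dgat2, the enzyme that favours newly made fatty acids in the final acylation, had the other change larger than 1. It was at 1362, 1592, 1429 and 1094 CPM in WT mice and 701, 447, 677 and 477 CPM in Ucp1Δ/Δ mice. No mouse of one genotype reached the range of the other, the nearest pair being 701 and 1094 CPM. The mean went from 1369 ± 207 to 575 ± 132 CPM (SD, n = 4 each), 42% of WT, with a log2 fold change of -1.25 (SE 0.19, 95% interval -1.66 to -0.84, adjusted p = 0.000255). It had 117 tested genes with a lower log2 fold change. Dgat2 lies at chr7:99153658-99182719 on the minus strand with no exonic overlap with another gene.

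Dgat1 encodes an unrelated enzyme for the same reaction, which is known to re-esterify fatty acids released by lipolysis. Its values were 238, 275, 324 and 154 CPM in WT mice and 188, 143, 260 and 152 CPM in Ucp1Δ/Δ mice, and they overlapped: WT mouse 4 was among the low values and Ucp1Δ/Δ mouse 3 above WT mouse 1. The gene lies at chr15:76502015-76511953 on the minus strand. Its log2 fold change was -0.42 (SE 0.24, 95% interval -0.92 to 0.087, adjusted p = 0.242).

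The 2 genes of glycerol handling had values on opposite sides of 0. Aqp7, the aquaglyceroporin of the fat cell, was at 57.6, 71.2, 51.1 and 62.8 CPM in WT mice and 106, 63.8, 99.5 and 80.3 CPM in Ucp1Δ/Δ mice. The Ucp1Δ/Δ mice 1, 3 and 4 were above every WT mouse, while mouse 2 lay within the WT range. The mean was 60.7 ± 8.51 CPM in WT mice and 87.3 ± 19.1 CPM in Ucp1Δ/Δ mice (SD, n = 4 each), with a log2 fold change of 0.53 (SE 0.19, 95% interval 0.12 to 0.93, adjusted p = 0.0639). Without Ucp1Δ/Δ mouse 2 the value was 0.66 (adjusted p = 0.0307) and without WT mouse 2 it was 0.60 (adjusted p = 0.034), so that the side of the threshold depended on single mice.

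Gk, which phosphorylates glycerol to glycerol-3-phosphate, was at 24.0, 39.9, 43.7 and 14.2 CPM in WT mice and 23.0, 19.9, 24.7 and 22.7 CPM in Ucp1Δ/Δ mice. The Ucp1Δ/Δ mice lay within the WT range and varied far less, with a coefficient of variation of 8.71% against 45.4%. The log2 fold change was -0.45 (SE 0.28, 95% interval -1.05 to 0.14, adjusted p = 0.287) and it ran from -0.69 (adjusted p = 0.0338) without WT mouse 4, the lowest of the 8, to -0.23 (adjusted p = 0.659) without WT mouse 3, the highest. Gk lies at chrX:85701937-85776819 and Aqp7 at chr4:41033074-41048139, both on the minus strand. Gk shares 84 exonic bases with the antisense gene Gm14764, which had 0 counts in every library.

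**Figure D2:**
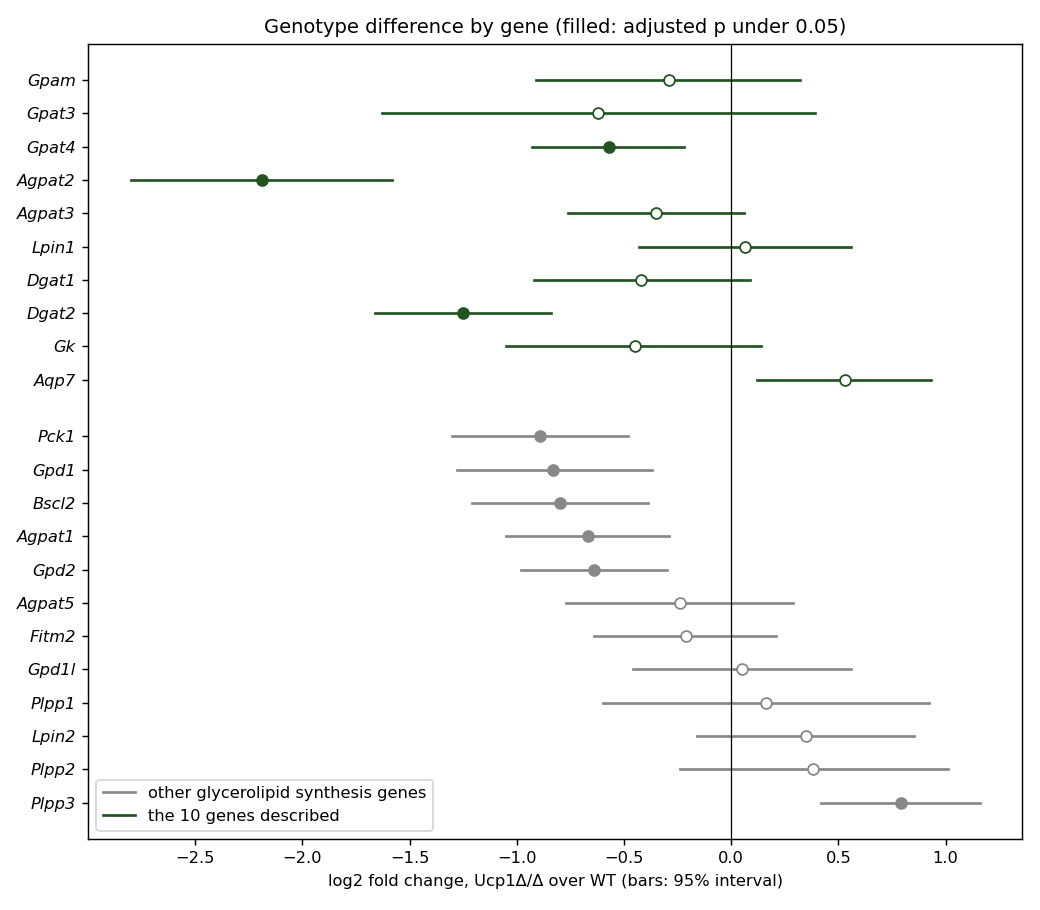
Log2 fold change of Ucp1Δ/Δ over WT mice with its 95% interval for the 10 genes described (green) and the 12 other glycerolipid synthesis genes with enough counts to test (grey), filled where the adjusted p is under 0.05. Agpat2 at -2.19 and Dgat2 at -1.25 lie farthest to the left, and Plpp3 at 0.79 farthest to the right.

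Enzymes of the same step, and the 2 genes of glycerol handling, were set against each other within each library. A ratio of 2 genes in 1 library does not depend on how libraries are scaled. The 5 ratios chosen were tested by exact permutation of the mice (two-sided), and 0.0286 is the smallest p that 4 against 4 allows. The log2 ratio of Agpat2 to Agpat3 counts was 1.43, 1.93, 1.92 and 1.31 in WT mice and -0.051, -0.46, -0.03 and -0.065 in Ucp1Δ/Δ mice. The values of the 2 genotypes did not overlap, and the ratio was 3.48-fold lower in Ucp1Δ/Δ mice (difference -1.80 in log2, permutation p = 0.0286, adjusted over the 5 ratios 0.0714). The log2 ratio of Dgat2 to Dgat1 was 2.52, 2.53, 2.14 and 2.83 in WT mice and 1.90, 1.65, 1.38 and 1.65 in Ucp1Δ/Δ mice. It was 1.82-fold lower in Ucp1Δ/Δ mice, again with no overlap (difference -0.86, permutation p = 0.0286, adjusted 0.0714). Neither ratio passed 0.05 after adjustment, and 0.0714 is the lowest adjusted value that 2 of 5 ratios can have when both are at the smallest p this number of mice allows.

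The remaining 3 ratios overlapped between genotypes. Gpam to Gpat4 differed by 0.22 in log2 (permutation p = 0.457, adjusted 0.571) and Gpat3 to Gpat4 by 0.12 (permutation p = 0.886, adjusted 0.886). Gk to Aqp7 went from -1.11 ± 0.80 to -1.92 ± 0.23 (SD, n = 4 each), a difference of -0.81 (permutation p = 0.114, adjusted 0.19), where WT mouse 4 at -2.13 lay among the Ucp1Δ/Δ mice.

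**Figure D3:**
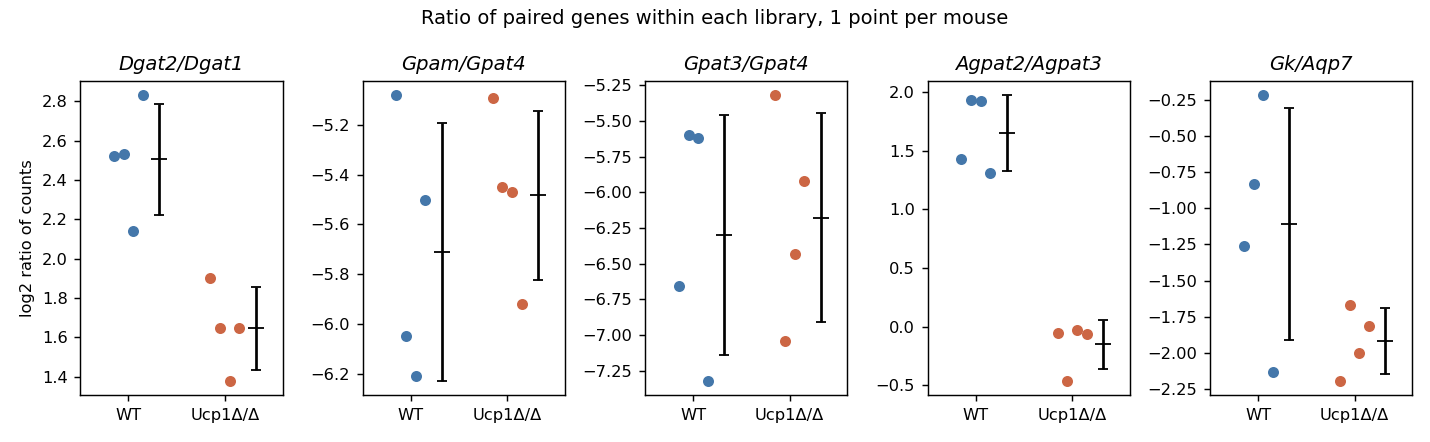
Log2 ratio of the counts of paired genes in each library, 1 point a mouse, with the mean and SD beside each group (WT blue, Ucp1Δ/Δ orange). Axes differ between panels; the groups are apart for Dgat2/Dgat1 and Agpat2/Agpat3 and overlap for the other ratios.

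Within a genotype, many of the 10 genes were high or low in the same mice. In WT mice, mice 2 and 3 were both above mice 1 and 4 for 7 of the 10 genes (Gpat3, Gpat4, Agpat2, Agpat3, Dgat1, Dgat2 and Gk), where 22.9% of tested genes had this order, and both below for Gpam and Lpin1 (21.3%). In Ucp1Δ/Δ mice, mice 1 and 3 were above mice 2 and 4 for 8 of the 10 (all but Gpat3 and Lpin1), where 20.1% of tested genes had this order. These pairs are the mice of each genotype with the lower skeletal muscle marker sums, 95.4 and 17.7 CPM against 1353 and 643 in WT mice and 277 and 55.6 CPM against 1865 and 822 in Ucp1Δ/Δ mice. The same pairs had the higher brown adipocyte marker sums. These were 13168 and 11583 CPM against 8797 and 5590 in WT mice and 7682 and 6911 CPM against 4446 and 5952 in Ucp1Δ/Δ mice. In WT mice, though not in Ucp1Δ/Δ mice, the pair also had the larger libraries. Ucp1Δ/Δ mouse 2 had the highest muscle, macrophage and stromal marker sums of its group and the lowest values of Gpat3, Agpat2, Agpat3, Dgat1, Dgat2, Gk and Aqp7. The parts that neighbouring muscle, brown adipocyte content and library size had in this spread within genotypes were not tested. In a split chosen after seeing the data, the 2 mice of each genotype with the lowest muscle markers were compared, and separately the 2 with the highest. Log2 fold changes were -2.31 and -1.94 for Agpat2, -1.12 and -1.41 for Dgat2 and -0.66 and -0.46 for Gpat4. The Gpat4 values lay on either side of the -0.57 of all mice. Neither passed with 2 mice a genotype (adjusted p = 0.0631 and 0.173). What part muscle had in the differences between genotypes was not tested by these fits.

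**Figure D4:**
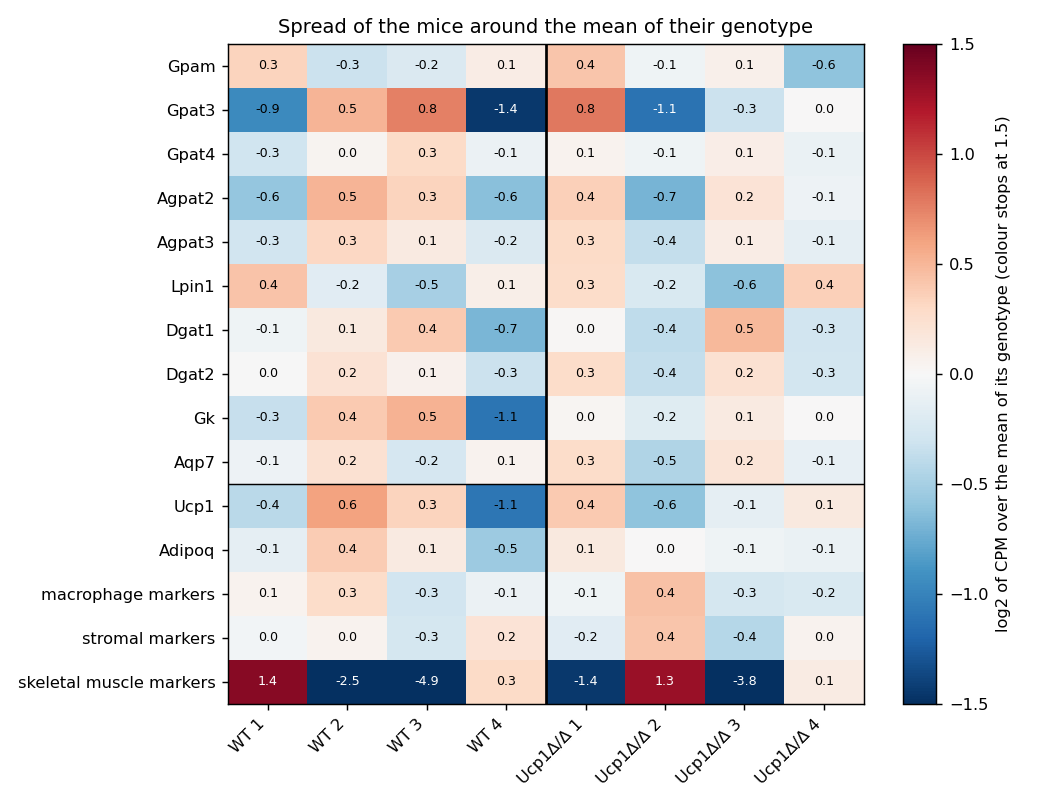
Log2 of the CPM of each mouse over the mean of its own genotype for the 10 genes (above the line) and for Ucp1, Adipoq and 3 summed marker lists (below it), red above and blue below the mean. Most of the 10 genes are red in WT mice 2 and 3 and in Ucp1Δ/Δ mice 1 and 3, where skeletal muscle markers are blue.

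Around the 10 genes, 20 further genes of glycerolipid synthesis were followed, of which 12 had enough counts to test, 5 fell, 1 rose and 6 did not pass, with a median log2 fold change of -0.23. The shares over all tested genes were 7.63% lower and 13.3% higher. Pck1, the key enzyme of glyceroneogenesis, fell from 2422 ± 492 to 1305 ± 232 CPM (SD, n = 4 each, log2 fold change -0.89, SE 0.19, adjusted p = 0.00343) with no overlap. Gpd1, the cytosolic glycerol-3-phosphate dehydrogenase, fell by 0.83 (SE 0.21, adjusted p = 0.0111) although Ucp1Δ/Δ mouse 3 at 1394 CPM passed WT mouse 4 at 1341 CPM. Gpd1l, which encodes a similar dehydrogenase, did not pass, with a log2 fold change of 0.051 (adjusted p = 0.912). Gpd2, the mitochondrial dehydrogenase that oxidises glycerol-3-phosphate, fell by 0.64 (SE 0.16, adjusted p = 0.00913).

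Of the other enzymes of the route, Agpat1, a further enzyme making phosphatidic acid, fell from 62.9 ± 12.4 to 39.6 ± 4.13 CPM (SD, n = 4 each, log2 fold change -0.67, adjusted p = 0.0144). Bscl2, which encodes seipin, a protein of lipid droplet formation and like Agpat2 a lipodystrophy gene, fell by 0.80 (SE 0.19, adjusted p = 0.00774), with 171 to 282 CPM in WT mice and 101 to 153 CPM in Ucp1Δ/Δ mice. Plpp3, a phosphatase of lysophosphatidic and phosphatidic acid at the cell surface, was the gene that rose, from 23 to 32.1 CPM in WT mice to 46.4 to 53.5 CPM in Ucp1Δ/Δ mice (log2 fold change 0.79, SE 0.17, adjusted p = 0.0041). Lpin2 and Agpat5, further lipin and acyltransferase genes, did not pass, with log2 fold changes of 0.35 (adjusted p = 0.342) and -0.24 (adjusted p = 0.555).

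Agpat4, named after its values were seen, had too few counts for the filter, with 3, 3, 2 and 0 counts in WT mice and 11, 27, 19 and 14 in Ucp1Δ/Δ mice. Every WT mouse was at or under the limit of 3 counts and every Ucp1Δ/Δ mouse above it. No fold change or p-value is given for this gene. It was among the genes called higher when all genes with at least 1 count in any mouse were kept.

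Phosphatidic acid and diacylglycerol also feed the synthesis of phospholipids. Of 16 genes of that branch, 12 were tested, 2 fell, 2 rose and 8 did not pass, with a median log2 fold change of -0.17. Of all tested genes, 7.63% fell and 13.3% rose. Chpt1, which makes phosphatidylcholine from diacylglycerol, fell from 996 ± 47.3 to 439 ± 44.6 CPM (SD, n = 4 each, log2 fold change -1.18, SE 0.15, adjusted p = 5.32e-05), with little spread in either group. Lpcat3, which places polyunsaturated fatty acids into phospholipids, fell by 0.82 (SE 0.21, adjusted p = 0.0121). Cds2, which draws phosphatidic acid into phosphatidylinositol, rose from 13.9 ± 1.21 to 25.1 ± 3.21 CPM (SD, n = 4 each, log2 fold change 0.85, SE 0.20, adjusted p = 0.00592). Lpcat1, another lysophosphatidylcholine acyltransferase, rose by 1.14 on the log2 scale (SE 0.31, adjusted p = 0.0169) from 5.82 to 10.6 CPM in WT mice to 8.84 to 25.2 CPM in Ucp1Δ/Δ mice, with overlap.

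Transcription factors and coactivators that act on these genes in fat were examined at the level of their own transcripts. None of 5 passed by edgeR, DESeq2 or limma voom, and 1 had an unadjusted p under 0.05 by edgeR and 2 by each of the others. Cebpa had a log2 fold change of -0.48 (SE 0.20, adjusted p = 0.107) and Pparg of -0.33 (SE 0.18, adjusted p = 0.219), both at overlapping levels. Srebf1, the lipogenic regulator SREBP1, was at -0.51 (SE 0.40, adjusted p = 0.414) from 7 to 42 counts a library. Mlxipl, which encodes ChREBP, was at -0.086 (adjusted p = 0.776) and Ppargc1a at 0.27 (adjusted p = 0.407).

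Fatty acid synthesis makes the acyl chains that the acyltransferases use. Of 12 genes of fatty acid synthesis, all tested, 9 fell and 3 did not pass, with a median log2 fold change of -1.19, where 7.63% of all tested genes fell. Fasn, the fatty acid synthase, fell from 10382 ± 1792 to 2125 ± 596 CPM (SD, n = 4 each, log2 fold change -2.29, SE 0.23, adjusted p = 4.21e-06), a change close in size to that of Agpat2. Acly, which makes cytosolic acetyl-CoA, fell by 1.89 (SE 0.25, adjusted p = 5.3e-05), and the elongase Elovl6 had a log2 fold change of -1.23 (SE 0.16, adjusted p = 4.73e-05). Of 8 genes of triglyceride hydrolysis, Pnpla2, Ces1d and Plin1 fell and 5 did not pass, with a median of -0.51, beside the same 7.63%. Ces1d, a carboxylesterase with triglyceride hydrolase activity, fell by 1.21 (SE 0.18, adjusted p = 0.000176), and Plin1, which coats lipid droplets, by 0.91 (SE 0.23, adjusted p = 0.0113). Pnpla2 is the deleted gene and was in this list by construction.

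**Figure D5:**
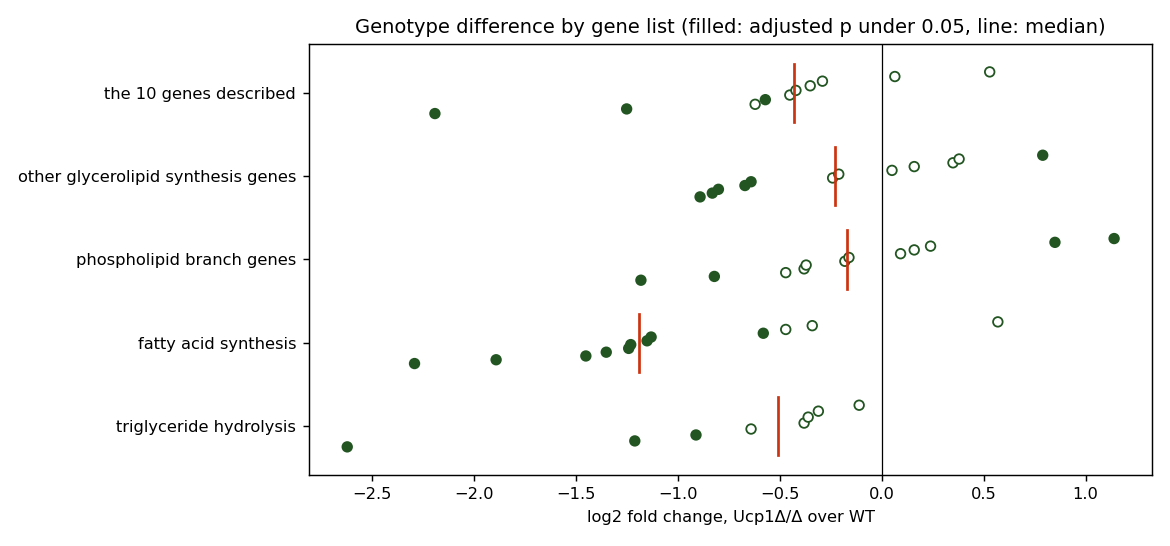
Log2 fold change of Ucp1Δ/Δ over WT mice for each tested gene of 5 lists, filled where the adjusted p is under 0.05, with the median of the list as a red line. The median is -0.43 for the 10 genes described and -1.19 for fatty acid synthesis; Pnpla2 at -2.62 is the lowest point under triglyceride hydrolysis.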

How the data were processed

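Bulk RNA-seq of BAT from 4 WT and 4 Ucp1Δ/Δ mice was used. The authors had digital mRNA-seq libraries prepared as a service, with single-end reads. Per their methods, bbduk was used for trimming, STAR for alignment to mm10 and HTseq-counts for counts per gene, whereas the submitters' processing notes name Trimmomatic, HISAT2 and DESeq2. The strand setting and annotation release were not given in the sources used here. The deposited whole-number counts were analysed, and the deposited normalized table was not used. Symbols and positions came from GENCODE M21.

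Genes were filtered with filterByExpr, scaled by TMM and tested on genotype with edgeR 4.0.16 in R 4.3.3 (quasi-likelihood test, Benjamini-Hochberg adjustment over 8930 genes, threshold 0.05). SE is the log2 fold change over the square root of F. CPM uses TMM-scaled totals, and ratios add 0.5 to each count. limma 3.58.1 and DESeq2 1.42.0 were alternatives. Pairs of mice of a genotype differed by more than sampling noise, with a chi-square of 4.69 to 23.2 per degree of freedom, so all 8 counted as separate. Tested on simulated data of the same depth, the fit recovered 58.3% of 96 genes changed by 1 on the log2 scale and 99% of 98 changed by 2, with 7.83% of calls false. The simulation took the spread of each gene from this fit and changed equal numbers up and down. In the data 1872 genes were called, more of them higher than lower, so these rates need not hold for the comparison itself.

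The 10 genes and all lists were chosen with earlier results of these data known. Named were all 10, Pnpla2, up to 8 called genes of the glycerolipid and phospholipid lists by smallest adjusted p, all 5 regulators and up to 3 genes of the fatty acid synthesis and hydrolysis lists. Agpat5, Lpin2, Gpd1l, Agpat4, Egfl7, 4930458D05Rik, Gm42987, Gm40709 and Gm14764 were named outside this rule after their values were seen. Alternatives were other scalings, filters, tests, a replicate block, leaving out each mouse and pairs of mice split by muscle markers.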

Additional observations from a re-analysis of the deposited data

Results flagged for a closer look

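Of 32 groups of 4 values examined, 1 held a value far from the others, where chance alone would give about 1.6. It was the log2 ratio of Agpat2 to Agpat3 in Ucp1Δ/Δ mouse 2, at -0.46 while the other 3 mice of the group lay between -0.065 and -0.03, so that its gap to the nearest took 0.919 of the group's range, past the critical value of Dixon's test. The mouse had 272 counts of Agpat2 and 374 of Agpat3, and without it the difference between genotypes in this ratio was -1.70 in place of -1.80.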

How the results depend on the processing

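Agpat2 and Dgat2 kept their direction and their call in every alternative run, with log2 fold changes of -2.22 to -2.06 and -1.29 to -1.12 over other scalings, filters, tests and the replicate block, -2.36 to -1.98 and -1.35 to -1.14 when single mice were left out, and the values given above for the low-muscle and high-muscle mice, a split chosen after seeing the data. The genes called lower numbered 3 in the main test and 2 to 3 over settings. When mice were left out they numbered 2 (without WT mouse 3, Ucp1Δ/Δ mouse 2 or Ucp1Δ/Δ mouse 4) to 4 (without WT mouse 4, when Gk joined). All genes called lower moved the same way. They numbered 681 in the main test, 491, 400 and 471 without those 3 mice in turn, and 851 without WT mouse 4. Genes called higher numbered 0, and 1, Aqp7, with total counts only (log2 fold change 0.66, adjusted p = 0.0152), limma voom (0.58, adjusted p = 0.0273) or at least 10 counts in every mouse (0.59, adjusted p = 0.0343). Leaving mice out gave 0 to 1. Signs turned for Gpam (0.21) among the low-muscle mice, for Gk (0.15) and Lpin1 (-0.11) among the high-muscle mice, and for Lpin1 at -0.081, -0.034 and -0.073 without WT mouse 3, Ucp1Δ/Δ mouse 1 and Ucp1Δ/Δ mouse 4. None of these values passed the test, and each side of that split holds 2 mice a genotype. Of the other glycerolipid genes, 5 were lower in the main test, 4 to 5 with mice left out, 3 among the low-muscle mice and 1 among the high-muscle mice. All genes called lower numbered 265 among the low-muscle mice and 441 among the high-muscle mice. Those higher numbered 1, and 2 with DESeq2, with at least 1 count in any mouse and among the high-muscle mice, or 1 to 2 with mice left out. With at least 1 count in any mouse, 1 of the 2 was Agpat4, which the filter of the main test had left out. All genes called higher numbered 1191 in the main test, 1290 with DESeq2, 1630 with at least 1 count in any mouse and 928 among the high-muscle mice. Apart from the filter, the cause of these changes was not tested. Log2 ratio differences with mice left out ran from -0.98 to -0.75 for Dgat2/Dgat1, -1.91 to -1.70 for Agpat2/Agpat3, -1.15 to -0.51 for Gk/Aqp7, 0.057 to 0.43 for Gpam/Gpat4 and -0.22 to 0.41 for Gpat3/Gpat4. Pnpla2 ran from -2.68 to -2.54 and Lpin1 from -0.081 to 0.23. Scaling by total counts moved the median of all genes to 0.13 and the calls from 681 lower and 1191 higher to 404 lower and 1478 higher. Deviations of mice with the same number had correlations of -0.0873, -0.196, 0.304 and 0.241, negative for numbers 1 and 2 and positive for 3 and 4. The numbers were not taken as pairs in the main test. With the replicate block, 1719 genes were called in place of 1872, the same 3 of the 10 passed as lower, and Agpat2, Dgat2 and Gpat4 were at -2.14, -1.26 and -0.56. Gpam and Gpat3 had at most 35 counts a library, and 8 of the 20 other glycerolipid genes had too few counts to be tested, whether from depth or from low expression.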
